A study of Mus musculus with 12 samples.

Results

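The D-type cyclins, their kinases CDK4 and CDK6, the inhibitors of these kinases and the retinoblastoma protein form the switch that lets a cell leave G1 phase. The 10 genes Ccnd1, Ccnd2, Ccnd3, Cdk4, Cdk6, Cdkn1a, Cdkn1b, Cdkn2a, Cdkn2b and Rb1 were taken by name from RNA-seq tables of mouse mammary tissue. They were 10 of the 23704 gene names in the tables of normal gland and untreated tumor and of the 23691 names in the tables of treated tumors, and 23301 names stood in both. Ccnd1 stood in a row that joined its name with Mir3962 in all 12 tables, and this row was used as Ccnd1. Rb1 stood in a pair of rows, which were summed and are also described apart.

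A D cyclin binds CDK4 or CDK6, and the complex phosphorylates the retinoblastoma protein, which then releases E2F transcription factors to switch on genes for DNA replication. Inhibitors of the INK4 family (Cdkn2a to Cdkn2d) bind the kinases themselves, while those of the CIP/KIP family (Cdkn1a, Cdkn1b, Cdkn1c) bind cyclin-kinase complexes, above all those of CDK2. In the mammary epithelium cyclin D1 is needed for lobuloalveolar growth in pregnancy, and it is a classical oncogene product in breast cancer.

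The design held 4 groups, with 3 replicates in each. The Normal group was abdominal and inguinal gland of untreated 12-week-old wild type FVB females, with the tissue of 3 mice pooled for 1 replicate. The Tumor group was tumor of the thoracic gland of untreated 12-week-old MMTV-PyVT females, 1 mouse for 1 replicate. In this strain the mouse mammary tumor virus promoter drives the polyoma virus middle T antigen in mammary epithelium, so each tumor arises from the same viral oncogene. The DMSO and C646 groups were tumors of MMTV-PyVT mice of the same age after injection of the solvent or of C646, an inhibitor of the histone acetyltransferase p300, and the labels give 1 mg/kg for both. The largest tumor of each of 3 mice was sequenced in either group. All tumors of the 3 tumor groups therefore carry the transgene, and the Normal samples do not. Tissue, gland position and pooling of mice change together between Normal and Tumor and cannot be told apart.

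The tables hold FPKM, fragments scaled to gene length and library size, so levels of different genes can be compared per length. Mapped reads are not listed in the tables, and no counting interval can be given. The FPKM of all rows summed to 526854.9 to 783718.6 in the 12 samples. Across genes, which are not independent replicates, Pearson's r between samples of 1 group was 0.971 to 0.973 in Normal, 0.947 to 0.962 in Tumor, 0.887 to 0.923 in DMSO and 0.951 to 0.959 in C646. Differences were tested with limma on log2(FPKM + 0.03125) over all names that reached 1 FPKM in 3 or more of the 6 samples of a comparison. P-values were adjusted over these names by the Benjamini-Hochberg method, and names under 0.05 were called. Each log2 difference is on this scale, which understates the change of low genes. The pairs of groups were processed into tables with different rows, so levels over all 4 groups are set side by side without a test.

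The tissue labels were checked against marker genes. Normal samples held adipocyte genes at a summed level of 18050 to 23110 FPKM, against 104 to 1352 FPKM in Tumor, and 8 of 8 were called lower in Tumor. Adipoq, an adipocyte hormone, averaged 1375 FPKM in Normal and 21.0 in Tumor. B cell markers summed to 223 to 284 FPKM in Normal and 0.445 to 0.816 in Tumor (4 of 4 lower), and Cd79a, a part of the B cell receptor, averaged 93.8 and 0.138 FPKM. T cell markers summed to 215 to 291 and 0.721 to 2.11 FPKM (5 of 5 lower), with Cd3e, a part of the T cell receptor complex, at 49.7 and 0.151 FPKM. The B cell marker Ms4a1 was listed at 0 in all 3 Tumor samples. Luminal epithelial markers summed to 414 to 874 FPKM in Normal and 2588 to 3511 FPKM in Tumor (5 of 6 higher), with the epithelial adhesion gene Epcam at 105 and 798 FPKM and the keratin gene Krt8 at 106 and 595 FPKM. Markers of brown fat summed to 763 to 1669 FPKM in Normal and 6.27 to 116 FPKM in Tumor (3 of 3 lower), those of macrophages to 112 to 136 and 32.3 to 50.5 FPKM (4 of 4 lower) and those of fibroblasts to 1197 to 1325 and 183 to 434 FPKM (3 of 4 lower). Endothelial markers summed to 106 to 134 and 16.7 to 24.6 FPKM (4 of 4 lower), with the vessel gene Pecam1 at 57.0 and 8.30 FPKM. Skeletal muscle markers summed to 5.28 to 63.2 FPKM in Normal and 1364 to 3857 FPKM in Tumor (4 of 4 higher). Myoepithelial markers summed to 190 to 331 and 141 to 249 FPKM, and of 6 of them 1 was higher, the basal keratin gene Krt14 (35.5 and 103 FPKM), and 3 were lower. Every difference between Normal and Tumor below was measured beside these shifts, and their part in it was not tested. In bulk tissue, fewer cells of a type and less RNA per cell cannot be told apart.

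Of the 10 genes, 3 rose and 3 fell from Normal to Tumor, and 4 did not pass the test. Ccnd1, Cdk4 and Cdkn1a were higher, and Ccnd2, Ccnd3 and Cdkn1b were lower. Of all 13031 names tested, 60.5% were called, 28.8% higher and 31.7% lower, and 64.8% had an unadjusted p under 0.05, so 6 of 10 is close to this background and is no result about the set. The 6 called genes were those whose groups did not overlap, as was true of 68.9% of all names, 33.1% in the higher and 35.8% in the lower direction. Changes went in both directions within the D cyclins and within the CIP/KIP inhibitors. Between C646 and DMSO no gene of the set passed the test.

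**Figure D1:**
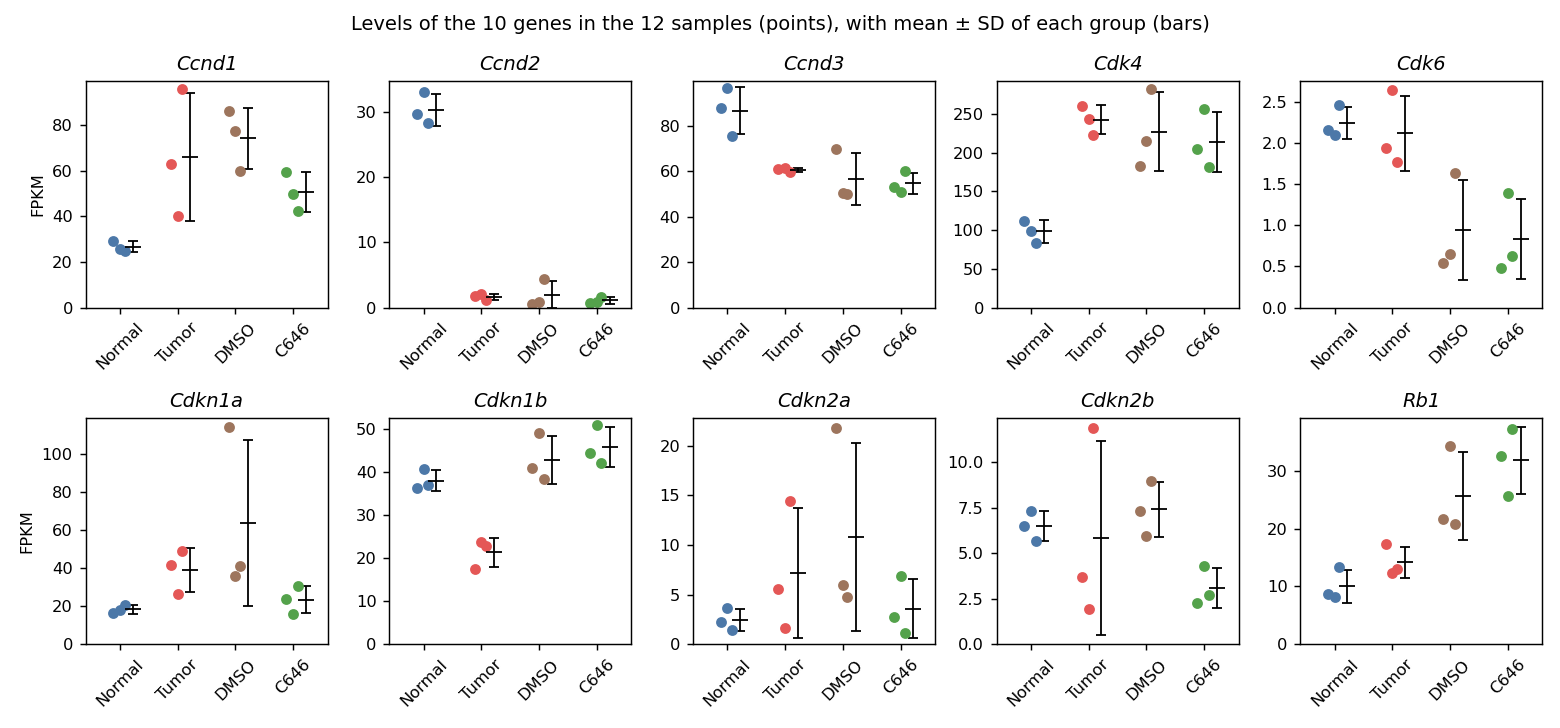
FPKM of each gene (vertical axes, from 0) in the 12 samples (points) by group, with the mean and SD of each group (n = 3) beside the points; the lower end of the SD of Ccnd2 in DMSO lies under 0 and is not drawn. Ccnd2 lay at 28.3 to 33.1 FPKM in Normal and at no more than 4.43 FPKM in any tumor, while Cdk4 was at least 182 FPKM in every tumor and at most 112 FPKM in Normal.

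Ccnd2, the D cyclin of lymphocytes, ovary and testis, among other tissues, had the largest difference of the 10 genes. It stood at 29.7, 33.1 and 28.3 FPKM in Normal and at 1.85, 2.01 and 1.17 FPKM in Tumor. The mean was 30.4 ± 2.47 FPKM in Normal and 1.68 ± 0.442 FPKM in Tumor (SD, n = 3), an 18.1-fold lower level. The log2 difference was -4.19 (SE 0.225, limma adjusted p = 2.27e-05), the groups were far apart, and all 3 tumors were low. Their coefficient of variation was 26.4%, against 8.13% in Normal. Treated tumors had low Ccnd2 as well, with 0.610, 0.927 and 4.43 FPKM in DMSO and 0.714, 0.872 and 1.67 FPKM in C646. DMSO replicate 3 had the highest Ccnd2 of all tumors and the highest Cdk6 of the treated ones, and it was also the one with the highest summed level of myoepithelial markers, 729 FPKM against 67.4 and 120 FPKM in the other DMSO tumors. Keratin genes made up most of that sum. Among them was Krt14, read in treated tumors from a row joined with Krt16 (382 FPKM in DMSO replicate 3). The other genes of the list differed in direction. Acta2 (21.8 against 10.9 and 9.10 FPKM) and Oxtr (3.99 against 2.65 and 3.41 FPKM) were higher in this tumor than in the other DMSO tumors. The smooth muscle gene Myh11, under 1 FPKM in all of them, was lower (0.184 against 0.384 and 0.492 FPKM). Skeletal muscle markers of DMSO replicate 3 summed to 279 FPKM against 0.376 and 0.934 FPKM, and its endothelial markers to 47.5 FPKM against 27.3 and 26.0 FPKM. C646 replicates 1 and 3 had muscle sums of 292 and 270 FPKM as well, with Ccnd2 at 0.714 and 1.67 FPKM. The part of these cells in the values of DMSO replicate 3 was not tested. Ccnd2 lies at chr6:127125162-127152193 on the reverse strand of GRCm38 and shares 372 and 368 exonic bases with antisense genes. The library did not keep strand, so reads of the overlapping genes named here and below cannot be told apart from those of the set.

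Ccnd1 encodes cyclin D1. It stood at 29.3, 25.7 and 24.8 FPKM in Normal and at 62.9, 40.0 and 95.8 FPKM in Tumor. Every tumor was above every normal sample, but the tumors spread widely, with a coefficient of variation of 42.4% against 9.01% in Normal. The mean rose 2.49-fold, with a log2 difference of 1.23 (SE 0.297, limma adjusted p = 0.00911). Levels in treated tumors were also above Normal, at 86.1, 77.3 and 59.8 FPKM in DMSO and 59.6, 49.8 and 42.2 FPKM in C646. Ccnd1 lies at chr7:144929931-144939925 on the reverse strand and shares 1100 exonic bases with LTO1 on the other strand. That gene, listed as Oraov1 in the tables, had 13.0 FPKM in Normal and 14.3 FPKM in Tumor on average (limma adjusted p = 0.521).

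Ccnd3, the D cyclin of many tissues and the most abundant of the 3 in Normal, stood at 87.7, 96.4 and 75.7 FPKM in Normal and 60.8, 61.4 and 59.6 FPKM in Tumor. The 3 tumors were nearly equal and all under the lowest normal sample. Their difference was -0.51 on the log2 scale (SE 0.134, limma adjusted p = 0.0132). The call was lost without Normal replicate 1 (-0.50, adjusted p = 0.0537) and without Normal replicate 2 (-0.43, adjusted p = 0.06). Ccnd3 (chr17:47505051-47599691, forward strand) shares 361 exonic bases with Bysl on the other strand, and the pseudogene Ccnd3-ps matches its transcript at 96.3% identity over 881 bases, so reads may be split between the copies.

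The summed level of the 3 D cyclins overlapped between the groups, at 147, 155 and 129 FPKM in Normal and 125.5, 103 and 157 FPKM in Tumor (exact permutation test, two-sided, p = 0.5, n = 3 each). Its makeup differed. Ccnd2 gave 21.2 ± 0.856% of the sum in Normal and 1.39 ± 0.600% in Tumor, and Ccnd1 gave 18.6 ± 1.80% and 49.99 ± 11.3% (SD, n = 3). Both shares were apart between the groups (exact permutation test, p = 0.1, the smallest 3 samples against 3 allow). The share of Ccnd3 was 60.2 ± 1.72% and 48.6 ± 10.7% and overlapped (exact permutation test, p = 0.2, n = 3 each). Such sums, shares and ratios were compared 15 times for Normal and Tumor, 11 of them were apart, and the adjusted p of those 11 was 0.136.

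**Figure D2:**
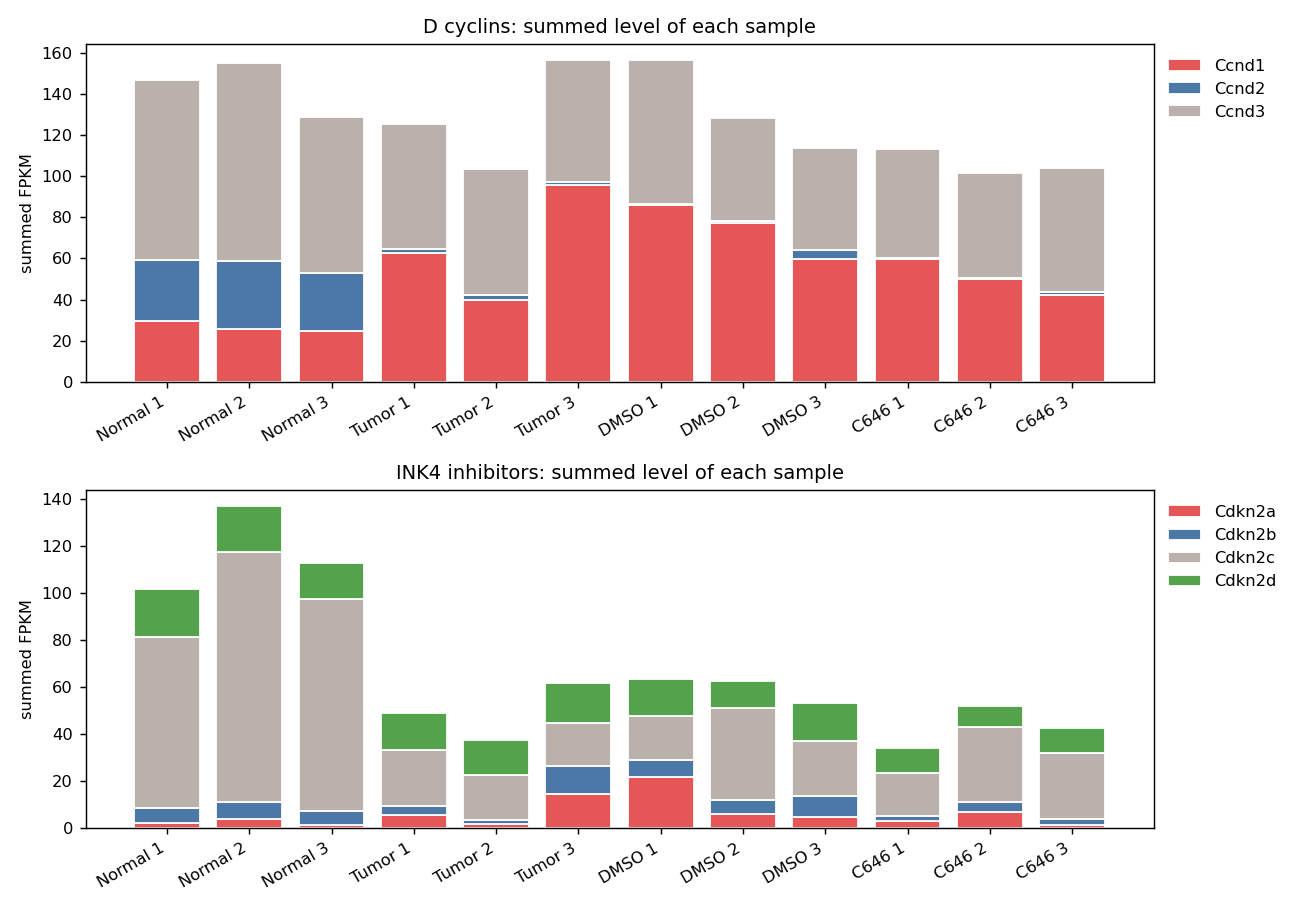
Stacked bars of the FPKM of the 3 D cyclins (top) and the 4 INK4 inhibitors (bottom) in each of the 12 samples, with heights starting at 0. The blue Ccnd2 band fills 20.3% to 22.0% of the D cyclin bar in Normal and at most 3.88% in every tumor, and the grey Cdkn2c band is the largest part of the INK4 bar in Normal.

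Cdk4 was the most abundant gene of the set in every group. It stood at 112, 99.6 and 83.3 FPKM in Normal and at 261, 244 and 223 FPKM in Tumor, a 2.47-fold higher mean with no overlap. On the log2 scale the difference was 1.31 (SE 0.157, limma adjusted p = 0.000385). In treated tumors it was 183, 215 and 283 FPKM in DMSO and 204, 256 and 182 FPKM in C646, above every normal sample. On average over Tumor, 395 of 23704 names had a higher FPKM than Cdk4, against 897 in Normal. Cdk4 lies at chr10:127063534-127067920 on the forward strand and shares 641 exonic bases with Tspan31 on the other strand, a tetraspanin gene that also rose, from 48.0 to 94.5 FPKM (log2 difference 0.98, limma adjusted p = 0.000429). Its part in the Cdk4 value was not tested.

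Cdk6, the partner kinase, was far under Cdk4, and 47.9% to 54.7% of all names were lower than its mean in the 4 groups. It stood at 2.16, 2.101 and 2.46 FPKM in Normal and 1.94, 2.64 and 1.77 FPKM in Tumor, and the groups overlapped. Their log2 difference was -0.10 (SE 0.236, 95% interval -0.65 to 0.46, limma adjusted p = 0.736), and it was 0.49 after quantile normalization. Cdk4 was 44.4 ± 9.38 times as high as Cdk6 in Normal and 118 ± 22.0 times in Tumor (SD, n = 3), and these ratios did not overlap (exact permutation test, p = 0.1, the smallest possible). Cdk6 was 0.543, 0.647 and 1.64 FPKM in DMSO and 0.477, 1.39 and 0.627 FPKM in C646. Cdk6 lies at chr5:3341485-3531008 on the forward strand and shares 368 exonic bases with the antisense gene Gm17590. The D cyclin sum was 1.44 ± 0.134 times that of both kinases in Normal and 0.531 ± 0.146 times in Tumor (SD, n = 3), again without overlap (exact permutation test, p = 0.1).

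The promoter of Cdk4 is shown because it was the kinase gene that rose and because few promoters hold the marked letters as often. The window runs from 250 bases before to 50 bases after the start, at base 251, and comes from RefSeq on GRCm38.p6. Capitals mark the E box CACGTG, the letters that Myc and related factors bind, which read the same on both strands.
Cdk4 chr10:127063285-127063584, forward strand: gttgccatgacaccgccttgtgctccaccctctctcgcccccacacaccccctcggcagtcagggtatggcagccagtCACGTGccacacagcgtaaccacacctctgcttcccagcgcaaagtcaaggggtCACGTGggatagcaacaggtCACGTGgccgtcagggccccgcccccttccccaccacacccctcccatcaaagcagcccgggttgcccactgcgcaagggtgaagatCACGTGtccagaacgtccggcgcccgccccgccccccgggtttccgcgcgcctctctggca
This window held 4 E boxes. Of 32851 RefSeq promoter windows of this length, 7.15% held at least 1 and 8 windows, or 0.0244%, held at least 4. The motif was searched after the sequence had been seen, and a match of letters is no measurement of binding. Myc itself rose from 31.1 FPKM in Normal to 51.9 FPKM in Tumor (log2 difference 0.73, limma adjusted p = 0.00521). Its part in the level of Cdk4 was not tested. Windows were given for 7 of the 10 genes, 10 windows in all. The E box was also found once in Cdk6 and in no window of Ccnd3, Cdkn1a, Cdkn1b, Cdkn2a or Cdkn2b.

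Cdkn1a encodes p21, the inhibitor that p53 switches on after DNA damage. It stood at 16.4, 17.7 and 20.7 FPKM in Normal and at 41.7, 26.6 and 48.9 FPKM in Tumor. All 3 tumors were above all normal samples, and the mean of 39.0 ± 11.4 FPKM compared with 18.3 ± 2.21 FPKM (SD, n = 3). On the log2 scale they differed by 1.05 (SE 0.236, limma adjusted p = 0.00659). Cdkn1a (chr17:29090976-29100727, forward strand) shares 273 exonic bases with the gene model AC167363.2 on the other strand.

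Cdkn1b encodes p27, the inhibitor that holds resting cells out of the cycle and is removed through the SKP2 ubiquitin ligase. It moved the other way, with 36.3, 40.7 and 37.1 FPKM in Normal and 17.6, 23.8 and 22.9 FPKM in Tumor. The groups were apart and the log2 difference was -0.84 (SE 0.154, limma adjusted p = 0.00266). Treated tumors stood higher than untreated ones, a difference that was not tested between the tables, at 40.9, 49.2 and 38.4 FPKM in DMSO and at 44.5, 51.0 and 42.1 FPKM in C646, around and above Normal. Cdkn1b lies at chr6:134920401-134925513 on the forward strand.

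The sum of both CIP/KIP genes overlapped, at 56.3 ± 3.16 FPKM in Normal and 60.5 ± 10.8 FPKM in Tumor (SD, n = 3, exact permutation test, p = 0.7). The ratio of Cdkn1a to Cdkn1b did not. It was 0.452, 0.436 and 0.558 in Normal and 2.37, 1.12 and 2.14 in Tumor, so that Cdkn1b was the higher of the pair in every normal sample and Cdkn1a in every untreated tumor (exact permutation test, p = 0.1, the smallest possible).

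RefSeq gives a pair of start sites for Cdkn1a, and the window of the upstream one is shown because it holds the letters of a p53 element. Capitals mark that element, 20 letters without a spacer, searched on both strands with at most 1 mismatch.
Cdkn1a chr17:29090729-29091028, forward strand: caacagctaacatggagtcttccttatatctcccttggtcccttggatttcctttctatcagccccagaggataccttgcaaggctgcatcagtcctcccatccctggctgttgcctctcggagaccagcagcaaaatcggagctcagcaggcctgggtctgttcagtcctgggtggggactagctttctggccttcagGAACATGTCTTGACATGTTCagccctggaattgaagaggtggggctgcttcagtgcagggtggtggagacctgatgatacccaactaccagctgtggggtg
Only 29 of the 32851 windows, or 0.0883%, held such an element, and the window of the downstream start at chr17:29093519-29093818 held none. No other window of the set held one. The motif was chosen because it is textbook knowledge for this gene, and the tables do not tell the transcripts of the start sites apart.

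Other genes that p53 switches on were listed as a group of 13, of which 12 were tested. Of these 3 were higher, 4 were lower and 5 were not called, which is near the 60.5% called over all names, and the median log2 difference was -0.14 beside -0.02 over all names. The p53 inhibitor gene Mdm2 had 13.7 FPKM in Normal and 14.8 FPKM in Tumor (limma adjusted p = 0.607), and the cyclin G gene Ccng1 had 37.3 and 28.6 FPKM (limma adjusted p = 0.055). Trp53 was 64.2 and 78.2 FPKM (limma adjusted p = 0.137).

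Cdkn2a encodes the INK4 inhibitor p16 and, from another start and reading frame, the p53 activator ARF. It was low and variable, at 2.21, 3.65 and 1.45 FPKM in Normal and 5.52, 1.60 and 14.4 FPKM in Tumor. Tumor replicate 2 fell within the normal range and tumor replicate 3 was highest. The difference was 1.14 on the log2 scale (SE 0.751, 95% interval -0.63 to 2.90, limma adjusted p = 0.225), and it rested on single tumors, since it was called without Tumor replicate 2 (1.96, adjusted p = 0.0169) and was 0.39 without Tumor replicate 3 (adjusted p = 0.616). Cdkn2a lies at chr4:89274471-89294653 on the reverse strand.

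Its FPKM covers both products. Their start sites are far apart in the gene, and both windows are shown since the single value cannot be divided between them. Capitals mark the E2F motif TTTNNCGC, searched on both strands, which 5.17% of the 32851 windows hold.
Cdkn2a chr4:89282143-89282442, reverse strand, the start of p16: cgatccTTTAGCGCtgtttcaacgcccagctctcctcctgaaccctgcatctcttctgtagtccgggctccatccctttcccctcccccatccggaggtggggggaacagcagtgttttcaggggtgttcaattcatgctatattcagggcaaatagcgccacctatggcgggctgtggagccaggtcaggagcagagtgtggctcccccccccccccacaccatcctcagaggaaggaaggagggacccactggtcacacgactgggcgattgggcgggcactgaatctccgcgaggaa
Cdkn2a chr4:89294570-89294869, reverse strand, the start of ARF: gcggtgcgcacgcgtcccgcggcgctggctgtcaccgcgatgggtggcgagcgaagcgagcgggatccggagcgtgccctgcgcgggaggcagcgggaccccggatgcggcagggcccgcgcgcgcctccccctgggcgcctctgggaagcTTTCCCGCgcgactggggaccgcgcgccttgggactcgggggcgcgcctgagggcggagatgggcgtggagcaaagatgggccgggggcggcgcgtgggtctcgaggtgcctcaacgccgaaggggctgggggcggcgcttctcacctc
Each window held 1 such motif. Among the other windows of the set, that of Cdk6 held 1 and those of Ccnd3, Cdk4, Cdkn1a, Cdkn1b and Cdkn2b held none.

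Cdkn2b, the neighbour of Cdkn2a, encodes the INK4 inhibitor p15 that TGF-beta switches on. It stood at 6.49, 7.34 and 5.69 FPKM in Normal and 3.71, 1.92 and 11.9 FPKM in Tumor. The tumors lay on both sides of the normal range, and the log2 difference was -0.56 (SE 0.590, limma adjusted p = 0.444). A single tumor decided its direction, since it was -1.27 (adjusted p = 0.0145) without Tumor replicate 3 and 0.04 (adjusted p = 0.95) without Tumor replicate 2. Cdkn2a and Cdkn2b were both lowest in Tumor replicate 2 and highest in Tumor replicate 3. Their ratio was 0.341, 0.497 and 0.255 in Normal and 1.49, 0.834 and 1.21 in Tumor, without overlap (exact permutation test, p = 0.1, the smallest possible). Cdkn2b lies at chr4:89306299-89311039 on the reverse strand.

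The other INK4 genes carried most of the family's level. Cdkn2c, which encodes p18, fell from 89.8 to 20.6 FPKM (log2 difference -2.12, limma adjusted p = 0.000101), while Cdkn2d, which encodes p19, had 18.5 and 15.8 FPKM (limma adjusted p = 0.242). Cdkn1c, the CIP/KIP gene of p57, fell from 20.0 to 6.92 FPKM (log2 difference -1.74, limma adjusted p = 0.00913). The sum of the 4 INK4 genes was 102, 137 and 113 FPKM in Normal and 48.8, 37.7 and 61.5 FPKM in Tumor. Cdkn2c gave 76.3 ± 4.51% of it in Normal and 43.4 ± 11.5% in Tumor (SD, n = 3). Set against Cdk4 and Cdk6, the INK4 sum was 1.19 ± 0.257 times their sum in Normal and 0.204 ± 0.0626 times in Tumor. All 3 of these measures were apart between the groups (exact permutation test, p = 0.1, the smallest possible).

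**Figure D3:**
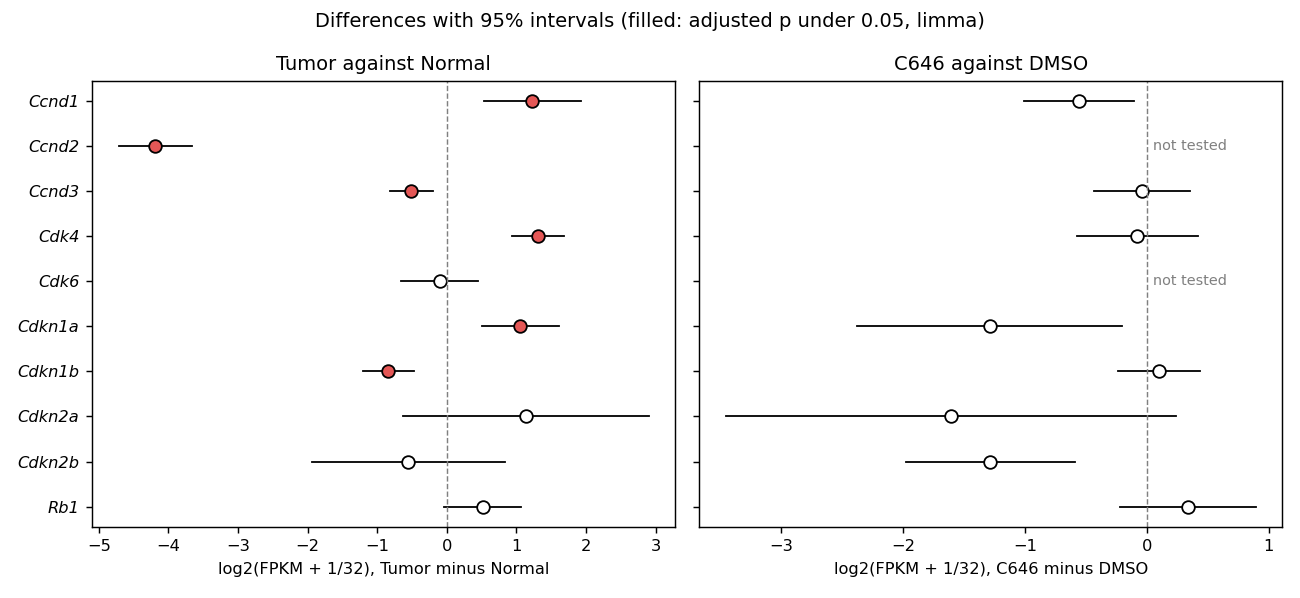
Log2 difference of each of the 10 genes with its 95% interval (horizontal axes, log2 of FPKM + 0.03125), Tumor minus Normal on the left and C646 minus DMSO on the right, filled where the limma adjusted p was under 0.05. On the left 6 genes are filled, from Ccnd2 at -4.19 to Cdk4 at 1.31, and on the right none are, with Ccnd2 and Cdk6 not tested.

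Rb1, the gene of the retinoblastoma protein, stood at 8.69, 8.14 and 13.3 FPKM in Normal and 17.2, 12.3 and 12.9 FPKM in Tumor when its rows were summed. The groups overlapped through Normal replicate 3, and the log2 difference was 0.51 (SE 0.233, 95% interval -0.03 to 1.06, limma adjusted p = 0.0929). Without that sample it was 0.73 (adjusted p = 0.0275). The DMSO and C646 tumors stood higher, at 21.6, 34.3 and 20.8 FPKM and at 32.5, 25.7 and 37.3 FPKM, with no overlap with Tumor.

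The rows of Rb1 moved in opposite directions. The first, listed between Rcbtb2 and Lpar6, stood at 1.07, 0.167 and 1.18 FPKM in Normal and 12.4, 4.91 and 6.74 FPKM in Tumor. It was higher in all 3 untreated tumors (log2 difference 3.54, SE 0.728, limma adjusted p = 0.00474). The second, listed between Cysltr2 and Mir687, stood at 7.62, 7.98 and 12.1 FPKM in Normal and 4.87, 7.41 and 6.19 FPKM in Tumor. It was lower in all 3 untreated tumors but not called (log2 difference -0.57, SE 0.244, limma adjusted p = 0.0789). This separate fit was chosen after seeing the data. Rb1 lies at chr14:73183673-73325822 on the reverse strand, and the tables do not say which transcripts either row covers. The forward strand genes Rcbtb2 and Lpar6 share 488 and 408 exonic bases with it, and both were called lower in Tumor, from 35.8 to 13.1 FPKM and from 22.7 to 10.3 FPKM. The direction of Rb1 in the untreated tumors therefore depends on the row. Rows of the treated tumors were numbered by their order of listing, and whether they match the rows of Normal and Tumor was not tested. By this order both rows stood above every normal sample of the same row in treated tumors, without a test between the tables. The first was 3.34, 5.31 and 6.57 FPKM in DMSO and 9.60, 3.43 and 5.04 FPKM in C646, and the second 18.2, 29.0 and 14.2 FPKM in DMSO and 22.9, 22.2 and 32.2 FPKM in C646.

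**Figure D4:**
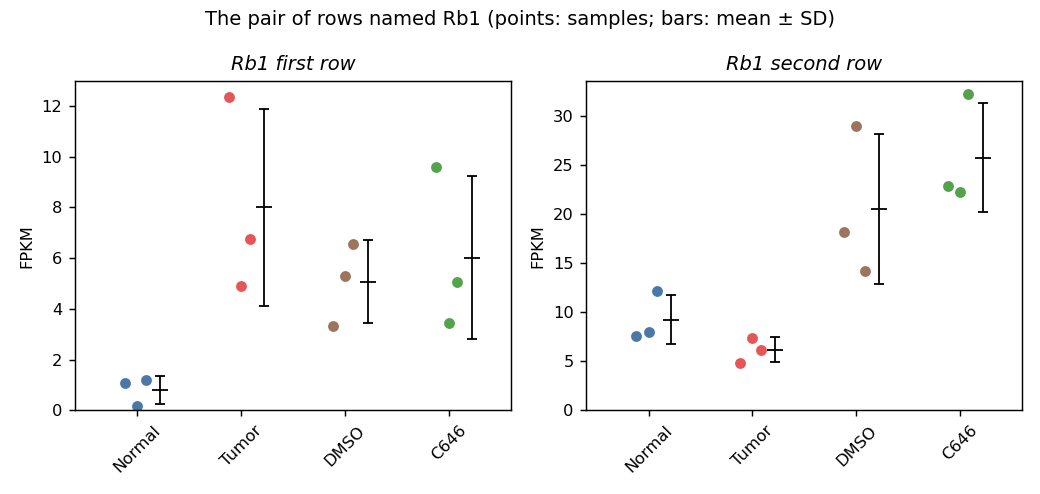
FPKM of the first (left) and second (right) row named Rb1 in the 12 samples (points) by group, with mean and SD (n = 3). Rows are numbered by their order of listing, and their match between untreated and treated samples was not tested. The first row is at most 1.18 FPKM in Normal and at least 4.91 FPKM in Tumor, while the second is at least 7.62 FPKM in Normal and at most 7.41 FPKM in Tumor.

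Rb1 has a pair of relatives that also bind E2F factors. Rbl2, which encodes p130, the pocket protein of resting cells, fell from 12.7 to 3.95 FPKM (log2 difference -1.68, limma adjusted p = 0.000103). Rbl1, which encodes p107, had 5.05 and 5.22 FPKM (limma adjusted p = 0.976). Of the activating E2F genes, E2f1 rose from 4.17 to 8.64 FPKM (log2 difference 1.08, adjusted p = 0.0054) and E2f3 had 3.23 and 4.51 FPKM (adjusted p = 0.0909). The repressor gene E2f4, read from a row joined with Elmo3, had 29.97 and 39.2 FPKM (adjusted p = 0.053), and the atypical repressor E2f8 rose from 1.51 to 4.55 FPKM (adjusted p = 0.0108). Of the 11 tested genes for pocket proteins, E2F factors and their DP partners, 5 were higher and 1 was lower. Over all names 60.5% were called, 28.8% higher and 31.7% lower, so the share called in this list is near the background.

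Genes downstream of the switch were mostly higher in Tumor. Of 15 E2F target genes of S phase, 13 rose and none fell, with a median log2 difference of 1.10 beside -0.02 over all names. The helicase genes Mcm2 (9.11 and 19.7 FPKM) and Mcm5 (12.4 and 30.8 FPKM) and the loading factor gene Cdc6 (1.08 and 3.55 FPKM) were among them. All 8 genes of mitosis rose, with a median of 2.78, and Mki67, the gene of the proliferation marker Ki-67, went from 4.73 to 20.9 FPKM (log2 difference 2.25, limma adjusted p = 0.00177). Of 7 tested genes of cyclin E, cyclin A, CDK2 and its activating kinase, 4 rose and none fell, a share called near the 60.5% over all names. Of all names 28.8% were higher and 31.7% lower. Ccne1, a cyclin E gene, rose from 3.95 to 10.3 FPKM (limma adjusted p = 0.0123), Cdk2 had 16.4 and 19.7 FPKM (limma adjusted p = 0.134), and Ccne2, with 0.760 and 1.31 FPKM, was too low to be tested.

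Among 12 regulators of the set, 5 rose, 3 fell and 4 were not called, a share near the 60.5% called over all names. Skp2, whose product marks p27 for removal, rose from 1.32 to 6.03 FPKM (log2 difference 2.14, limma adjusted p = 0.000268). Of the Polycomb genes, which repress the Cdkn2a locus, Ezh2 rose from 7.69 to 15.7 FPKM (limma adjusted p = 0.00344) while Bmi1 fell from 12.8 to 8.95 FPKM (limma adjusted p = 0.0417) and Cbx7 from 18.6 to 2.60 FPKM (log2 difference -2.83, limma adjusted p = 2.23e-05), the largest change of this list. Over all 7 lists, 38 of 68 tested genes were higher, 10 were lower and 20 were not called, against 28.8% higher and 31.7% lower over all names. The median was 0.66 on the log2 scale.

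**Figure D5:**
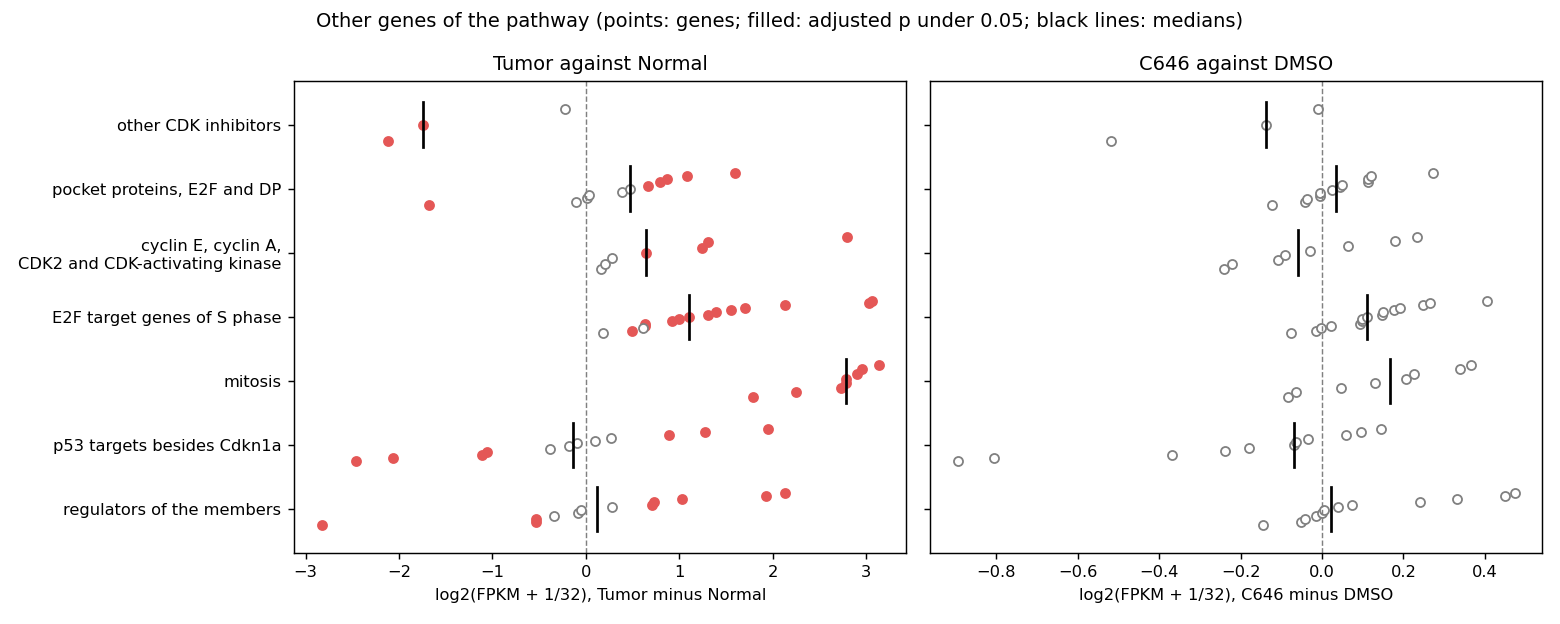
Log2 difference of each tested gene of the 7 pathway lists (points, horizontal axes, log2 of FPKM + 0.03125), Tumor minus Normal on the left and C646 minus DMSO on the right, on axes of different range, with the median of each list as a black line and filled points where the limma adjusted p was under 0.05. Genes of S phase and mitosis lie above 0 on the left, with medians of 1.10 and 2.78, and no point is filled on the right.

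C646 was set against DMSO to ask what inhibition of p300 changes in the tumors. Of the 8 genes of the set that could be tested, none passed, and neither did any of the 12083 names tested (0.00% called). At an unadjusted p under 0.05 there were 384 names, or 3.18%, and 3 of them were in the set. These were Ccnd1, Cdkn1a and Cdkn2b, all lower with C646, and they were also the 3 genes of the set whose groups did not overlap. Of all names tested, 8.56% had groups apart, 4.52% lower and 4.04% higher with C646.

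Ccnd1 averaged 74.4 ± 13.4 FPKM in DMSO and 50.6 ± 8.73 FPKM in C646 (SD, n = 3). The lowest DMSO tumor, at 59.8 FPKM, and the highest C646 tumor, at 59.6 FPKM, nearly touched. The log2 difference was -0.56 (SE 0.189, 95% interval -1.003 to -0.11, limma adjusted p = 0.99). The sum of D cyclins was also lower in every C646 tumor, at 156.5, 128.5 and 114.0 FPKM in DMSO and 113.5, 101.6 and 103.8 FPKM in C646 (exact permutation test, p = 0.1, the smallest possible). That was 1 of 6 measures apart among 15 compared between DMSO and C646, and the adjusted p of those 6 was 0.25. Oraov1, which shares exonic bases with Ccnd1, averaged 20.1 FPKM in DMSO and 15.9 FPKM in C646 (log2 difference -0.32, limma adjusted p = 0.99). Its part in the Ccnd1 value was not tested.

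Cdkn1a stood at 114, 35.9 and 41.3 FPKM in DMSO and at 23.8, 16.0 and 30.5 FPKM in C646. DMSO replicate 1 was far above the rest, and Cdkn2a was also highest in that tumor. The log2 difference was -1.29 (SE 0.459, 95% interval -2.38 to -0.20, limma adjusted p = 0.99), and -0.77 without DMSO replicate 1. Cdkn1b averaged 42.9 ± 5.64 and 45.9 ± 4.604 FPKM (log2 difference 0.10, 95% interval -0.24 to 0.44). The ratio of Cdkn1a to Cdkn1b was lower in C646, 0.524 ± 0.205 against 1.53 ± 1.10 (SD, n = 3), without overlap (exact permutation test, p = 0.1).

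Cdkn2b had the smallest p of the set in this comparison. It stood at 7.34, 5.93 and 8.95 FPKM in DMSO and 2.25, 4.31 and 2.72 FPKM in C646. The log2 difference was -1.28 (SE 0.292, 95% interval -1.98 to -0.59, limma adjusted p = 0.99) and lay between -1.55 and -1.08 when any 1 sample was left out. Cdkn2a stood at 21.7, 5.99 and 4.77 FPKM in DMSO and 2.77, 6.87 and 1.12 FPKM in C646. Its groups overlapped, with a log2 difference of -1.61 (SE 0.780, 95% interval -3.45 to 0.24, limma adjusted p = 0.99). It was -0.93 without DMSO replicate 1, -0.96 without C646 replicate 3 and -2.25 without C646 replicate 2. The sum of the 4 INK4 genes was 63.5, 62.5 and 53.3 FPKM in DMSO and 34.1, 51.8 and 42.6 FPKM in C646, without overlap (exact permutation test, p = 0.1).

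The remaining tested genes had 95% intervals on both sides of 0. The log2 difference was -0.04 for Ccnd3 (-0.43 to 0.36), -0.08 for Cdk4 (-0.57 to 0.42) and 0.34 for Rb1 (-0.22 to 0.90). Ccnd2 and Cdk6 reached 1 FPKM in 2 of the 6 tumors and were not tested. A p over the threshold does not show that DMSO and C646 tumors are alike in these genes.

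None of the 69 tested genes of the pathway lists was called either, and 6 had an unadjusted p under 0.05. Over all names 3.18% had such a p, and 8.56% had groups apart. Mcm2 had 21.1 FPKM in DMSO and 22.2 FPKM in C646, E2f1 6.07 and 6.34 FPKM, and Mki67 35.5 and 43.8 FPKM. Skp2 had 7.08 and 7.16 FPKM. Of the 6 genes, 3 were p53 targets, all with a lower mean in C646. They were Phlda3 (24.3 and 13.9 FPKM, unadjusted p = 0.00137 by limma, groups apart), Bax (112 and 87.1 FPKM, unadjusted p = 0.0359 by limma, groups apart) and Plk2 (33.6 and 17.4 FPKM, unadjusted p = 0.0281 by limma), each with an adjusted p of 0.99. The p53 targets Mdm2, with 22.9 and 21.6 FPKM, and Ccng1, with 38.5 and 36.7 FPKM, were not among the 6. Over the 11 tested p53 targets the median log2 difference was -0.07, beside -0.02 over all names. Cdkn2d was lower in every C646 tumor, with 14.6 and 10.1 FPKM on average (unadjusted p = 0.0248 and adjusted p = 0.99 by limma). The rest of the 6, Fbxo31 and Foxo1 from the list of regulators, were higher in every C646 tumor. Fbxo31 had 7.935 and 10.97 FPKM (unadjusted p = 0.0385 by limma). Foxo1 had 16.65 and 22.71 FPKM (unadjusted p = 0.0428 by limma), and both had an adjusted p of 0.99. Adipocyte markers moved beside these values. They summed to 16.3 to 60.3 FPKM in DMSO and 71.9 to 327 FPKM in C646, and 7 of 7 tested were higher at an unadjusted p under 0.05, while none was called. Their part in the lower Ccnd1, Cdkn1a and Cdkn2b of C646 tumors was not tested. B cell markers summed to at most 0.843 FPKM and T cell markers to at most 2.53 FPKM in every treated tumor. Luminal markers summed to 2497 to 3086 FPKM in these 6 tumors.

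Over the 4 groups the order of the means differed from gene to gene. Ccnd1, Cdk4, Cdkn1a and Cdkn2a were lowest in Normal, and of these only Ccnd1 and Cdk4 were apart from the next group, C646. Ccnd2 and Ccnd3 were highest in Normal and apart from the next group. Cdkn1b was lowest in Tumor, apart from Normal above it. The means of Rb1 were lowest in Normal, then Tumor, DMSO and C646, and those of Cdk6 had the reverse order, and of these neighbours only Tumor and DMSO were apart for either gene. Cdkn2b overlapped between all neighbours.

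Names with the most similar pattern were sought from the deviations of each sample from its group mean over the 12 samples, among the 10108 names that reached 1 FPKM in each of them, the gene itself left out. The closest name had a Pearson r of 0.962 for Ccnd1 (Slc9a3r1), 0.965 for Ccnd2 (Rpl9), 0.954 for Ccnd3 (Med27), 0.951 for Cdk4 (Wfdc17) and 0.952 for Cdk6 (Rbm25). It was 0.949 for Cdkn1a (Ndrg3), 0.953 for Cdkn1b (Haus2), 0.941 for Cdkn2a (Micu2), 0.923 for Cdkn2b (Zdhhc4) and 0.929 for Rb1 (Pik3r1). These are the highest of many values over few samples that share libraries and depth, and they are given as a description. No gene of the set was the closest name of another. Ccnd2 and Cdk6 could not be, since they were under 1 FPKM in some samples and so not among the names searched.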

How the data were processed

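Poly-A RNA of 12 mouse samples was sequenced with libraries that did not keep strand. Per the labels and the study's methods, the authors removed adaptors with cutadapt, aligned to mm10 with TopHat2 2.1.1, and deposited the FPKM that Cufflinks 2.2.1 gave, as 1 table per sample. The annotation behind the rows is not given in the sources used here. Groups, replicates and the dose came from the labels. Rows without a name (7.01% of the Normal and Tumor rows) were dropped, repeated names were summed, and a gene found only in a joined row took that row. Tests used limma 3.58.1 in R 4.3.3 (lmFit, eBayes with a trend) on log2(FPKM + 0.03125), for names reaching 1 FPKM in 3 or more of 6 samples, within each pair of groups. The same fit was also run on simulated data, whose outcome is not given here. Replicates were separate mice, or separate pools of 3 mice for Normal. Single measures were compared with two-sided exact permutation tests.

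The 10 genes, the 7 pathway lists (71 genes), the 10 marker lists and the tests were chosen with earlier results of these data known. Named genes were all 10 of the set and others fixed by name whatever their values. Myc, Trp53, Ms4a1, Myh11, Acta2, Oxtr, Cbx7, Phlda3, Bax, Plk2, Fbxo31, Foxo1 and the genes overlapping the set were named after their values were seen. Genes were placed with GENCODE vM21 on GRCm38, and promoter sequences came from RefSeq on GRCm38.p6. Alternatives were other pseudocounts, filters, scalings, a replicate block, the highest row or separate rows of a repeated name, no variance trend and each sample left out. ChIP-seq and proteomics were not analysed here. Sums, permutation tests and figures were made in Python 3.11.15 (scipy 1.17.1, pandas 2.3.3, numpy 2.4.6, matplotlib 3.10.9).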

Additional observations from a re-analysis of the deposited data

How the results depend on the processing

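Of 286 log2 differences of the set under an alternative, 271 kept their direction and their side of the threshold, 2 lost the call, 3 gained one and 10 changed sign, all 10 without a call on either side. For Tumor against Normal, Cdk6 (-0.099) became 0.492 and, for C646 against DMSO, Ccnd3 (-0.037) became 0.061 and Cdk4 (-0.076) became 0.075 with quantile normalization, and Rb1 (0.513) became -0.572 with the highest row. The other changes of sign came from leaving out 1 sample. They were Cdk6 (-0.265 to 0.018) and Cdkn2b (-1.268 to 0.037) for Tumor, above 0 without Tumor replicates 3 and 2, and Ccnd3 (-0.121 to 0.123) and Cdk4 (-0.221 to 0.094) for C646. Leaving out 1 sample gave 2 to 4 lower and 3 to 4 higher genes of the set. Over all names, quantile normalization moved the median Tumor against Normal difference from -0.02 to 0.10, with 4260 names higher and 3715 lower. Leaving out 1 sample gave 2570 to 4172 names lower (2686 without Normal replicate 2 and 2570 without Normal replicate 3, where fewer names passed the filter) and 3030 to 3373 higher for Tumor, and 0 to 12 lower for C646 (12 without DMSO replicate 2, the cause was not tested).

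The replicate block, which treats equal replicate numbers as pairs, gave 3439 names higher and 3827 lower for Tumor and none for C646, and changed no call of the set. Deviations of same-numbered samples correlated at -0.098 to 0.01 (Normal and Tumor) and 0.07 to 0.175 (DMSO and C646). Differently numbered ones gave -0.062 to 0.093 and -0.234 to 0.141. In these comparisons 1 of 6 and 4 of 6 samples correlated best with their own number. The main fit did not treat equal numbers as pairs. For DMSO and C646 the same-numbered mean was the higher, 0.118 against -0.059, and whether these samples are paired is not known. The study's methods state a depth per library, but the mapped reads of each sample are not in the tables. Whole-read steps among low values gave relative depths of 0.756 to 1.53 for 8 of 30 pairs of samples. At their low levels in treated tumors Ccnd2 and Cdk6 had log2 differences of -0.42 and -0.15 for C646 without the filter on low values (limma adjusted p = 0.949 and 0.989).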
